A study of Mus musculus with 219 samples.

Results

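The genes described here are 32 genes of cholesterol synthesis and sterol control, chosen by name from a list of mevalonate and sterol synthesis enzymes with the SREBP, LXR and sterol transport genes. They are 32 of the 55487 gene identifiers in each of the 2 count tables. By role they comprise 8 enzymes that lead from acetyl-CoA through mevalonate to squalene, 10 enzymes that lead from squalene to cholesterol, 5 genes of SREBP control, 5 genes of LXR and its targets, and 4 genes of transport, esterification and removal. RNA was sequenced from left prefrontal cortex of mice, and the sources used here do not name their strain. The first table is a daily atlas of 92 WT/WT (Snord116+/+Ctg-/-) mice of about 12 weeks, housed in home cages under a 12 h light phase followed by a 12 h dark phase, with collection every 3 h around the clock. Times are zeitgeber times (ZT), counted in hours from lights on, and each time had 6 mice per sex except 5 at ZT18 and ZT21.

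The second table holds 126 mice collected at ZT6. These mice were moved into light-controlled incubators at about 8 weeks, acclimated for 7 days and entrained at 22 °C to a cycle of equal light and dark phases, either 12 h each (called 12:12) or 11 h each (called 11:11). One set went into indirect calorimetry chambers after 22 days and was collected in constant darkness, and the other had running wheels for its last 7 days and was collected in the light cycle. Constant darkness has no lights on to count from, so ZT6 of the calorimetry set is the time its labels give. As a share of the cycle, ZT6 also lies further along on 11:11 than on 12:12. Both sets held males and females of 4 genotypes. WT/WT is as in the atlas. HET/WT mice carry 1 Snord116 deletion (Snord116+/-Ctg-/-). WT/TG mice carry the Ctg transgene alone (Snord116+/+Ctg+/-), and HET/TG mice carry both the deletion and the transgene (Snord116+/-Ctg+/-). Each of the 32 combinations of set, sex, light cycle and genotype had 4 libraries, with 2 exceptions of 3 libraries each, both WT/TG males: calorimetry on 11:11 and running wheel on 12:12. The sources used here name neither the parent that passed on the Snord116 deletion nor the promoter of the Ctg transgene.

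Cholesterol in the brain is made locally, because plasma lipoproteins do not cross the blood-brain barrier, and much of it resides in myelin. Its synthesis is switched on by the transcription factors SREBP, which the protein SCAP escorts from the endoplasmic reticulum when sterols are scarce and which INSIG proteins hold back when sterols are plentiful. LXR receptors respond to oxidised sterols and raise export through ABC transporters, and astrocytes pass cholesterol to neurons on apolipoprotein E particles.

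Total counts per library ranged from 12995491 to 18420258 in the atlas (median 15117293) and from 12737699 to 29856536 at ZT6 (median 17218721). The markers of neurons, astrocytes, oligodendrocytes, microglia, vessels and blood were all detected in both tables, and none was at 0 in every library. Markers of striatal neurons, which a cortical sample should hold few of, summed to between 93.7 and 1180 CPM (counts scaled to a common library total) in the atlas and between 105 and 1110 CPM at ZT6. In the ZT6 table, 1 library labelled HET/WT (running wheel, female, 11:11, replicate 3) held 167.3 CPM of Snhg14, the host transcript of Snord116, against 20.17 to 69.3 CPM in the other libraries labelled HET/WT or HET/TG and 115.9 to 280.6 CPM in those labelled WT/WT or WT/TG. A second library (running wheel, female, 11:11, WT/TG, replicate 1) had 40.28% of its counts in ribosomal RNA, against at most 8.326% elsewhere. Leaving out both libraries changed the number of sterol genes past the threshold in no ZT6 comparison by over 1.5 times. Other low values stood apart in the calorimetry set and were kept. Calorimetry males on 11:11 had lowest values of 134 CPM for Srebf2 (median 225), 46 for Scap (74.4) and 13.6 for Nr1h2 (32.6). The lowest values of calorimetry HET/TG libraries were the same. Mitochondrial ribosomal RNA reached 31.1% of counts in the calorimetry set on 11:11 (median 10.9%). Whether 1 library held these values was not examined. The p-values measure the spread between mice of a group, numbered as biological replicates. In this bulk tissue, fewer cells of a type and less RNA per cell cannot be told apart.

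**Figure D1:**
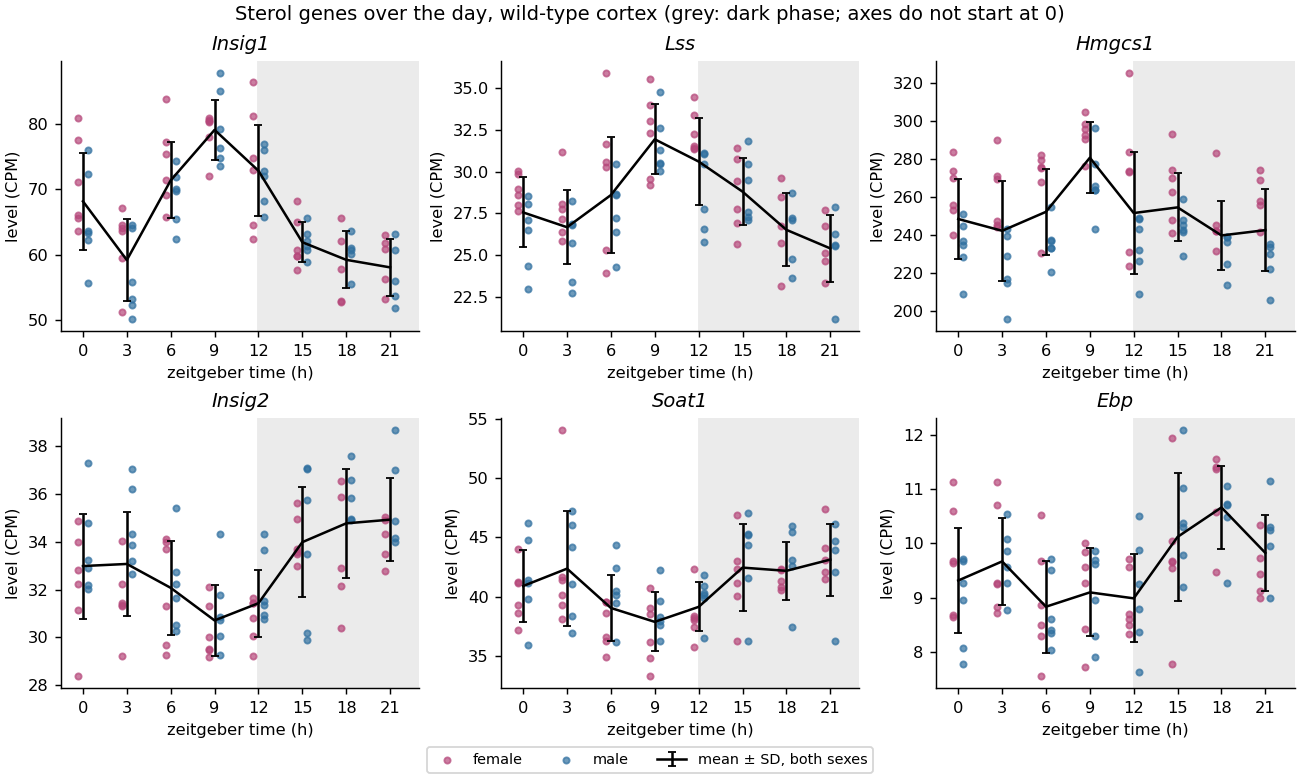
Levels (CPM, vertical axis) of Insig1, Lss, Hmgcs1, Insig2, Soat1 and Ebp in each wild-type library against zeitgeber time (hours, horizontal axis), with females and males as dots and the mean ± SD of both sexes as the black line. Insig1, Lss and Hmgcs1 have their highest medians at ZT9, and Insig2, Soat1 and Ebp have theirs at ZT18 or ZT21.

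Promoter sequence is shown for the 4 genes whose changes over the day or between light cycles are described most fully below. Each is the stretch before the annotated start of the gene, on the gene's own strand, from the RefSeq promoter table on GRCm38.p6: Insig1 at chr5:28071162-28071362 (plus strand), Hmgcs1 at chr13:119690101-119690350 (plus strand), Lss at chr10:76531355-76531587 (plus strand) and Soat1 at chr1:156474332-156474578 (minus strand). Capitals mark the CCAAT box on either strand (CCAAT or ATTGG), the letters TCACNCCAC of a sterol regulatory element with 1 open base, and the E-box CACGTG.
Insig1: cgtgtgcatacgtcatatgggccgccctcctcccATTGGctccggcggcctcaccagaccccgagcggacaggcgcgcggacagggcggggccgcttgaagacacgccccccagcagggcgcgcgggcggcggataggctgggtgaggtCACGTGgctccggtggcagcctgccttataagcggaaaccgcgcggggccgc
Hmgcs1: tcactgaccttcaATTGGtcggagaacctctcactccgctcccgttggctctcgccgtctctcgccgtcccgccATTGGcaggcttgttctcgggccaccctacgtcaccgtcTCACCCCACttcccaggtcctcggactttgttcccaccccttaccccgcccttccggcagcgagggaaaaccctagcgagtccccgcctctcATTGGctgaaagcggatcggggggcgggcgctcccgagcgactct
Lss: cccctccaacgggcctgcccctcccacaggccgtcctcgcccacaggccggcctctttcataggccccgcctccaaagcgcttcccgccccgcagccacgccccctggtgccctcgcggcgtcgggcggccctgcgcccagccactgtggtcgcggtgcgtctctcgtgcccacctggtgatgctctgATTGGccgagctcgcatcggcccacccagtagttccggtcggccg
Soat1: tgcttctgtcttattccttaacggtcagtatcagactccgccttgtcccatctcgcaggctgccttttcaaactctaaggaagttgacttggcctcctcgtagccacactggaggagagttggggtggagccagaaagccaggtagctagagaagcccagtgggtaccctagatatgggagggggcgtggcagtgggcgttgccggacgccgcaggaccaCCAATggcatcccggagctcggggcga

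A search of both strands of the 250 bases before each RefSeq start covered 27 of the 32 genes, since the table had no entry for Fdps, Fdft1, Sqle, Abcg1 or Stard4. The CCAAT box, bound by the factor NF-Y, was present for 21 of these 27 genes (77.8%) and for 39.9% of the 11915 tested genes with a window. The E-box CACGTG was present for 6 of 27 (22.2%), namely Hsd17b7, Sc5d, Dhcr7, Scap, Insig1 and Abca1, against 9.44% of tested genes. The letters TCACNCCAC were present for 1 of 27 (Hmgcs1, 137 bases before the start) against 1.22%, and the same letters preceded by A and with C at the open base for 0 against 0.0671%. The D-box TTATGTAA was present for 0 of 27 against 0.697%, and the LXR element, searched as 2 copies of AGGTCA in the same direction spaced by 4 bases, for 0 of 27 and 0 of the tested genes. The overlap of these motifs with one another was not counted, and a match describes letters in a window, not a bound site.

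All 32 genes passed the filter on low counts in both tables. Compared per kilobase of exon (RPKM) in the atlas, Apoe, the main lipoprotein component of astrocytes, was the highest at 347 ± 28.2 RPKM (SD, n = 92). Hmgcs1, which makes HMG-CoA, followed at 54.9 ± 5.49 RPKM and Cyp46a1, the neuronal hydroxylase that prepares cholesterol for removal, at 41.2 ± 2.75 RPKM. The neighbours in that order lay further apart than their SDs down to the fifth gene: Srebf2, the SREBP gene tied most closely to cholesterol synthesis, stood at 30.4 ± 1.55 RPKM and Insig1 at 21.5 ± 2.92 RPKM. From Fdft1 (squalene synthase, 15.1 ± 1.12 RPKM) downwards the genes formed a near-continuous series. The lowest were Nr1h3, encoding LXR alpha, at 0.651 ± 0.163 RPKM and Fdps, farnesyl diphosphate synthase, at 0.251 ± 0.0871 RPKM. The level of Fdps is uncertain, because the annotated gene Gm43738 overlaps it on the same strand and could take its reads. The same holds for Tm7sf2, a sterol reductase that overlaps Vps51 on the same strand. Mvd, Fdft1, Cyp51 and Srebf1 overlap protein-coding genes on the opposite strand, and no source used here states the strand setting of the counting.

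Over the day, 15 of the 32 genes (46.9%) varied with a 24 h curve at an adjusted p under 0.05 by edgeR's quasi-likelihood test, against 41.4% of all 17193 genes tested, so the share was close to the background. Most of their peaks fell in the later light phase, the late dark phase or the earlier light phase. Insig1, Lss, Hmgcs1, Nsdhl, Mvk and Acat2 peaked in the later light phase. Insig2, Soat1, Mylip and Ebp peaked late in the dark phase. Dhcr7, Apoe and Fdps peaked in the earlier light phase. The median peak-to-trough difference of the 15 genes was 0.15 on the log2 scale, against 0.19 for all genes past the threshold, and over all 32 genes it was 0.10 against 0.14 for all genes tested. Of the 15 peaks, 6 (40%) fell between ZT6 and ZT12, where 25.6% of all rhythmic genes had theirs.

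Insig1, whose protein retains SREBP in the endoplasmic reticulum and which is itself a target of SREBP, had the surest curve. Its 12 libraries at ZT9 ranged from 72.1 to 87.6 CPM (median 79.7), while the 10 at ZT21 ranged from 51.9 to 63.2 CPM (median 58.5). The medians were 65.8 CPM at ZT0, 61.5 at ZT3, 70.7 at ZT6, 72.9 at ZT12, 61 at ZT15 and 60.4 at ZT18. Every library at ZT9 was thus above every library at ZT21, and the medians of the other times lay between theirs. The fitted peak-to-trough difference was 0.35 ± 0.04 (log2 ± SE), a 1.27-fold change, with its peak at ZT8.66 (95% interval 7.72 to 9.6, adjusted p = 2.49e-09). The single curve does not follow the dip at ZT3, where the median was below that at ZT0.

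Among the enzymes, Lss, which closes the sterol ring, followed a like course. It ranged from 29.2 to 35.5 CPM at ZT9 (median 31.8) and from 21.2 to 27.9 CPM at ZT21 (median 25.6), again without overlap. Its difference was 0.26 ± 0.04 with a peak at ZT10.1 (adjusted p = 1.61e-08). Hmgcs1 ranged from 243 to 305 CPM at ZT9 (median 284) and from 206 to 275 CPM at ZT21 (median 239), so its groups overlapped. It differed by 0.14 ± 0.03 with a peak at ZT9.54 (adjusted p = 0.000558). Acat2, the cytosolic thiolase at the head of the pathway, differed by 0.16 ± 0.04 with a peak at ZT11.6. Fdft1 followed at ZT12.4, on the border of the dark phase, with 0.11 ± 0.03. Nsdhl (0.13 ± 0.04, ZT9.06) and Mvk (0.12 ± 0.04, ZT9.67), peaked within the same hours. Nsdhl did not pass without replicate 5 (adjusted p = 0.088) or with time as a factor (0.0532). Mvk passed narrowly (adjusted p = 0.0457) and did not pass without replicate 1, 2, 3 or 5, with adjusted p up to 0.252. Its adjusted p was 0.164 with the slope of counts on gene length as a covariate.

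The dark-phase genes moved the other way. Insig2, the second INSIG gene, ranged from 32.8 to 38.7 CPM at ZT21 (median 34.6) and from 29.2 to 34.3 CPM at ZT9 (median 30.4), which overlap. Its peak-to-trough difference was 0.16 ± 0.03 with a peak at ZT20.2 (95% interval 19 to 21.3, adjusted p = 1.21e-06), and this interval does not overlap that of Insig1. Soat1, which esterifies cholesterol for storage, had medians of 38.1 CPM at ZT9 and 43.5 CPM at ZT21 and peaked at ZT20.6 with 0.16 ± 0.03 (adjusted p = 0.000262). Ebp, the sterol isomerase, had medians of 8.55 CPM at ZT6 and 10.7 CPM at ZT18, a peak at ZT18.9 and a difference of 0.20 ± 0.04. Mylip, the LXR-induced ligase that marks lipoprotein receptors for breakdown, peaked at ZT19.9 with 0.15 ± 0.04 (adjusted p = 0.00908, and 0.0632 without replicate 2). Ebp was thus the only one of the 4 squalene-to-cholesterol enzymes past the threshold whose peak lay in the dark phase, and Soat1 had an adjusted p of 0.0633 once the slope of counts on gene length was a covariate. That slope itself moved over the day, with overlapping ranges and means from -0.05 at ZT6 to 0.05 at ZT21. Its part in the daily curves was not tested beyond this covariate.

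**Figure D2:**
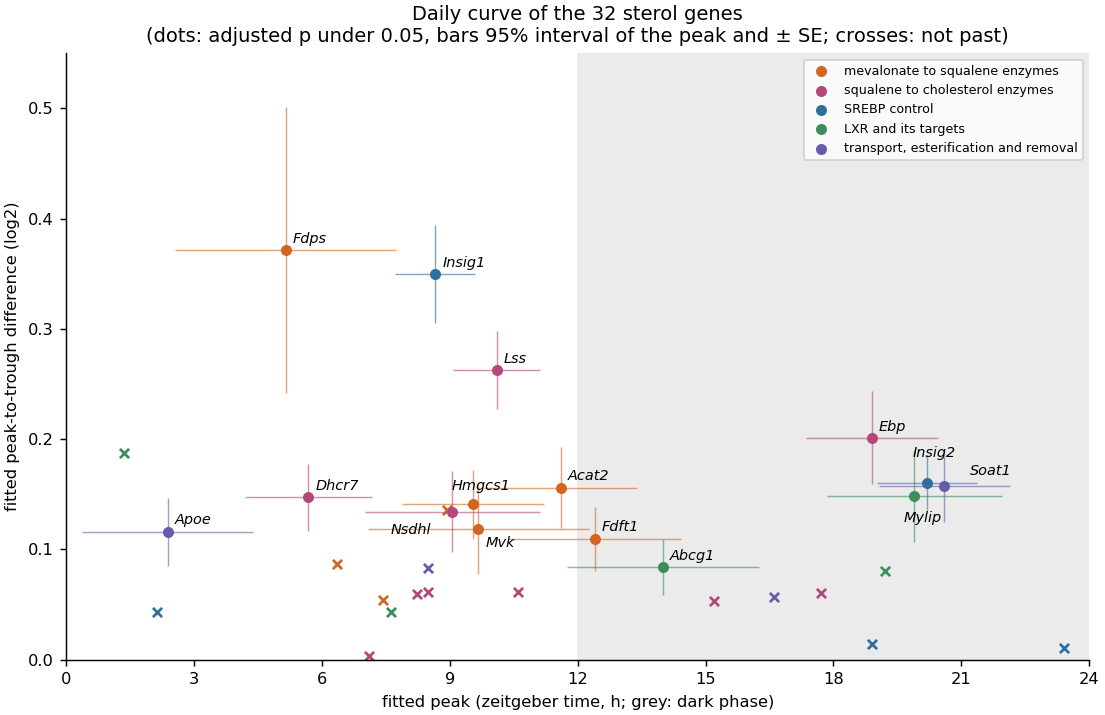
Fitted peak-to-trough difference (log2, vertical axis) against fitted peak time (zeitgeber time in hours, horizontal axis) for the 32 genes, coloured by role. Dots with bars (95% interval of the peak, ± SE of the difference) are the 15 genes past the threshold and crosses the others. The dots form a cluster around ZT9 to ZT12 and another around ZT19 to ZT21.

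Dhcr7, the reductase of the last step, peaked at ZT5.68 with 0.15 ± 0.03 (adjusted p = 0.000186) and Apoe at ZT2.38 with 0.12 ± 0.03 (adjusted p = 0.00471). Abcg1, a cholesterol exporter, peaked at ZT14 with 0.08 ± 0.03 (adjusted p = 0.0142). Fdps had the largest fitted difference, 0.37 ± 0.13 at ZT5.15, but its counts were the lowest (0.183 to 2.56 CPM) and its adjusted p of 0.047 rose to between 0.0583 and 0.269 without replicate 1, 2, 3 or 6. It was 0.214 with the slope of counts on gene length as a covariate. The remaining 17 genes did not pass. Among them were both SREBP genes and their escort, with fitted differences of 0.04 ± 0.03 for Srebf1, 0.01 ± 0.02 for Srebf2 and 0.01 ± 0.02 for Scap. Sqle, the epoxidase often taken as a rate-limiting enzyme, gave 0.06 ± 0.03 (adjusted p = 0.271), with medians between 46.2 and 51.4 CPM at all 8 times. By role, 5 of 8 enzymes to squalene, 4 of 10 enzymes from squalene, 2 of 5 SREBP control genes, 2 of 5 LXR genes and 2 of 4 transport genes passed. Outside the list, 8 of 17 fatty acid synthesis genes passed, led by Elovl6 (a fatty acid elongase, 0.26 ± 0.03, ZT18.9) and Acaca (acetyl-CoA carboxylase, 0.10 ± 0.03, ZT14). Of 26 other tested sterol genes 15 passed, led by Gramd1b (a carrier of cholesterol to the endoplasmic reticulum, 0.27 ± 0.03, ZT17.7) and Lpcat3 (an LXR-induced phospholipid acyltransferase, 0.34 ± 0.05, ZT4.28).

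The daily curve was compared between the sexes. By edgeR no sterol gene differed past the threshold (0 of 32, with 3 at an unadjusted p under 0.05, and 0 of 32 by DESeq2), while 0.0756% of all genes did. With each sex fitted alone, on 46 libraries in place of 92, 7 genes passed in females and 8 in males. The share of all genes in these fits is not given here, so these counts cannot be compared with a background. Insig1 had a fitted difference of 0.36 in both sexes, peaking at ZT7.93 in females and ZT9.4 in males.

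Averaged over the day, most enzymes from squalene to cholesterol were lower in wild-type males than in females, and several LXR genes were higher. Library names begin with A for all atlas males and with B for all atlas females. Sex therefore cannot be told apart from any difference between these series of libraries. In all, 22 of 32 genes (68.8%) differed between the sexes, 7 higher and 15 lower in males, against 41.1% of all genes (21% higher and 20.1% lower). By role, 8 of 10 enzymes from squalene to cholesterol were lower in males and 0 higher, 4 of 8 enzymes to squalene were lower and 1 higher, and 3 of 5 LXR genes were higher and 0 lower. The median difference of the 32 genes was -0.06 (male minus female, log2), against -0.0008 for all genes.

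Hmgcs1 ranged from 196 to 296 CPM in the 46 males (median 237) and from 224 to 325 CPM in the 46 females (median 270), a difference of -0.17 ± 0.02 (adjusted p = 5.9e-10). Msmo1, which removes sterol methyl groups, had medians of 51 CPM in males and 57.5 CPM in females (-0.16 ± 0.02, adjusted p = 6.18e-10). Sqle had medians of 45.7 and 50.9 CPM (-0.16 ± 0.02, adjusted p = 7.96e-09). In each of these 3 genes the ranges of the sexes overlapped, and the male median was below the female one. Smaller falls of the same direction were found for Nsdhl (-0.14 ± 0.03), Mvd (-0.13 ± 0.04) and Hsd17b7 (-0.11 ± 0.03), which act along the same pathway, and for Cyp46a1 (-0.10 ± 0.02). Fdps gave the largest difference, -0.45 ± 0.09, at the lowest level, with medians of 0.887 CPM in males and 1.18 CPM in females. Tm7sf2 (0.002 ± 0.04) and Ebp (-0.0007 ± 0.03) stood at the other end of the same enzymes and did not pass.

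Srebf1, the SREBP gene tied most closely to fatty acid synthesis, was higher in males, with medians of 40 CPM against 37 CPM (0.12 ± 0.02, adjusted p = 5.45e-06). Abca1, which loads cholesterol onto apolipoproteins, had medians of 47.7 and 43.8 CPM (0.10 ± 0.03, adjusted p = 0.00158). Abcg1 (0.08 ± 0.02) and Nr1h2, encoding LXR beta (0.08 ± 0.02), also rose, whereas Srebf2 fell by 0.07 on the log2 scale (SE 0.01). Other collected material moved with sex too. The 6 striatal markers were all lower in males, with a median difference of -1.73 and summed levels of 93.7 to 407 CPM in males and 117 to 1180 CPM in females. The 5 blood markers were all higher (median difference 0.35), with sums of 85 to 539 CPM in males and 57.5 to 163 CPM in females. Of 10 astrocyte markers 6 were higher and 1 lower in males (sums of 5460 to 6430 CPM, median 6040, against 5180 to 6950 CPM, median 5670). Ribosomal RNA took 0.363 to 1.61% of counts in males (median 0.841%) and 0.328 to 3.41% in females (median 1.44%). Mitochondrial ribosomal RNA took 7.59 to 17.6% in males (median 13.9%) and 12.1 to 19.9% in females (median 14.8%). The part of these in the sex differences of the sterol genes was not tested. In the other lists, 5 of 17 fatty acid genes differed (2 higher, 3 lower), led by Acly (ATP citrate lyase, -0.12 ± 0.02), as did 14 of 26 other sterol genes (7 higher, 7 lower), among them Erlin1 (a membrane protein of the endoplasmic reticulum, -0.18 ± 0.03).

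The light cycles were compared at ZT6, over both sets and then within each. Over both sets, 4 of 32 genes (12.5%) differed, against 12.6% of all 18841 genes tested: Insig1 (-0.10 ± 0.02, 11:11 minus 12:12), Idi1 (-0.10 ± 0.03) and Msmo1 (-0.06 ± 0.02) fell and Soat1 (0.07 ± 0.02) rose. Without replicate 3, 1 gene (Insig1) passed. Idi1 also did not pass without replicate 2 or 4 (adjusted p = 0.142 and 0.0781), Msmo1 without replicate 4 (0.189), and Soat1 without replicate 1 (0.132) or with the length slope, that of log2 CPM on the log10 of gene length in a library, as a covariate (0.175). In the calorimetry set, collected in constant darkness, 7 genes (21.9%) passed, against 19.6% of all genes (10.4% higher and 9.13% lower on 11:11), and in the running wheel set none did, against 0.069%. Of all genes past the threshold in the calorimetry set 53.3% were higher on 11:11, and under RLE scaling 46.3% were, with 1 sterol gene higher and 9 lower. The calorimetry set thus held the sterol genes in about the same share as all genes, and the results below concern single genes.

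**Figure D3:**
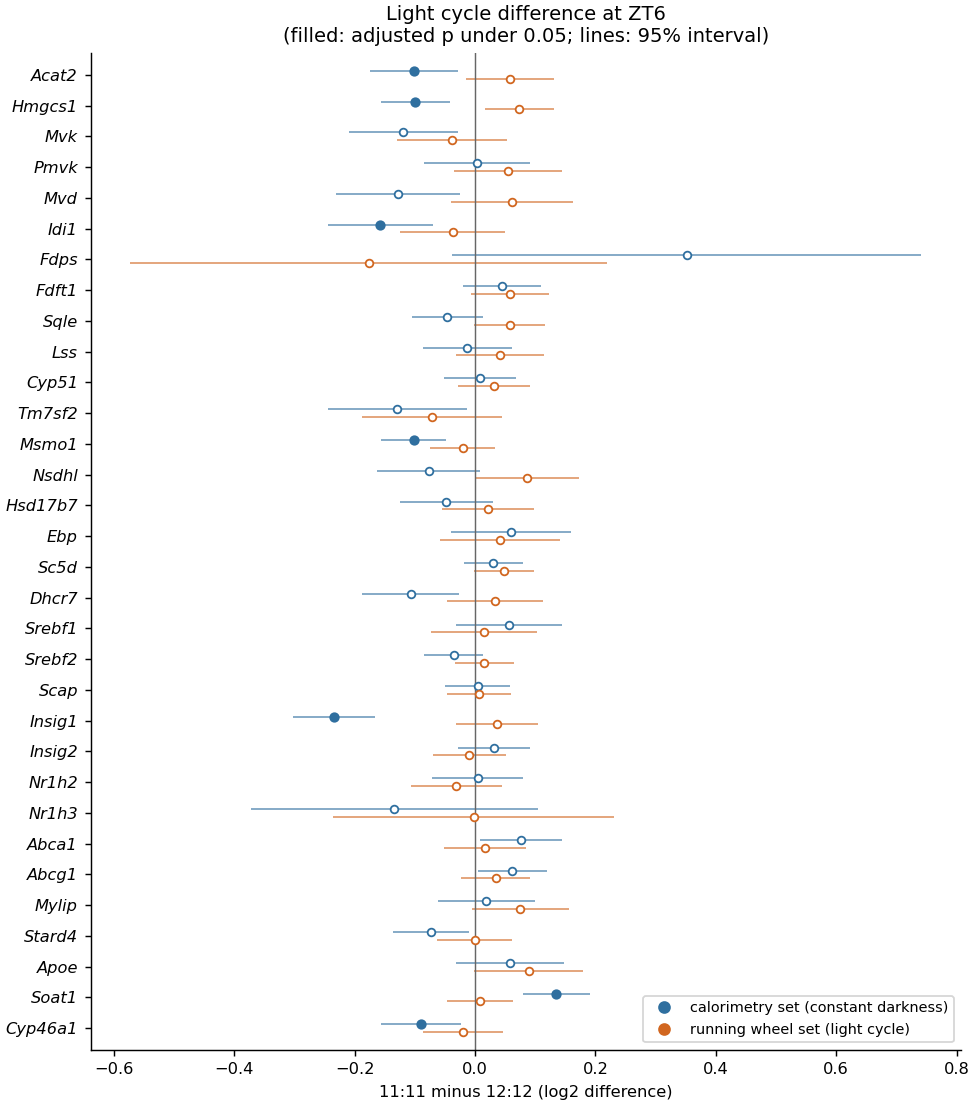
Difference between light cycles at ZT6 (11:11 minus 12:12, log2, horizontal axis) for each of the 32 genes (vertical axis) in the calorimetry set and the running wheel set. Filled dots passed an adjusted p of 0.05, lines are 95% intervals, and the 7 filled dots all belong to the calorimetry set, led by Insig1 at -0.23.

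In the calorimetry set Insig1 was the most changed of the 7. Its 32 libraries on 12:12 ranged from 75.9 to 113 CPM (median 91.6) and its 31 on 11:11 from 55 to 102 CPM (median 77.2). The difference was -0.23 ± 0.03 on the log2 scale, so that the level fell by 15% (95% interval of the log2 difference -0.30 to -0.17, adjusted p = 1.24e-07). The ranges overlap, and the sexes lie at different levels within them. In females the 16 libraries on 11:11 ranged from 55 to 87.7 CPM (median 67.2) and those on 12:12 from 75.9 to 103 CPM (median 81.6). In males the medians were 87.6 CPM on 11:11 and 100 CPM on 12:12. The fall passed in females (-0.30 ± 0.05) and in males (-0.17 ± 0.05) taken separately.

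Of the 5 enzymes that fell, 4 make cholesterol and 1 prepares it for removal. Idi1, the isomerase that makes the activated isoprene unit, had medians of 14.9 CPM on 11:11 and 16.3 CPM on 12:12 (-0.16 ± 0.04, adjusted p = 0.00589). Msmo1 had medians of 60.9 and 65.3 CPM (-0.10 ± 0.03, adjusted p = 0.00424). Hmgcs1 ranged from 231 to 319 CPM on 11:11 (median 251) and from 227 to 341 CPM on 12:12 (median 273), with -0.10 ± 0.03 (adjusted p = 0.00909). In all 3 genes the ranges overlapped widely. Acat2 (-0.10 ± 0.04, adjusted p = 0.0392) and Cyp46a1 (-0.09 ± 0.03, adjusted p = 0.047) passed narrowly. Neither passed with the calorimetry libraries fitted alone (adjusted p = 0.116 and 0.131). Acat2 did not pass without replicate 1 (0.213) or 4 (0.242), and Cyp46a1 did not pass without any 1 of the 4 replicate numbers (0.067 to 0.272) or with the replicate block (0.0509). Soat1 was the only gene to rise, from a median of 42.7 CPM on 12:12 to 47.6 CPM on 11:11 (0.14 ± 0.03, adjusted p = 0.000155). Without replicate 4, 4 genes passed, since Acat2, Cyp46a1 and Idi1 (adjusted p = 0.0558) then did not. Idi1 also failed without replicate 2 (adjusted p = 0.0665) and Hmgcs1 without replicate 3 (adjusted p = 0.104). Mvk (-0.12 ± 0.05), Dhcr7 (-0.11 ± 0.04) and Mvd (-0.13 ± 0.05) had adjusted p of 0.0561, 0.0525 and 0.0732, while Sqle (-0.05 ± 0.03) and Lss (-0.01 ± 0.04) lay nearer to 0. Srebf1 (0.06 ± 0.05), Srebf2 (-0.04 ± 0.03) and Insig2 (0.03 ± 0.03) did not pass.

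The sexes were then taken apart within the calorimetry set, a comparison chosen after the data were seen. In females 5 genes (15.6%, against 12.3% of all genes) passed, all lower on 11:11, where 6.69% of all genes were higher and 5.62% lower. In males 4 genes (12.5%, against 13.5%) passed, 2 higher and 2 lower. Of all genes past the threshold in males 53.1% were higher on 11:11, and under RLE scaling 42.3% were. Idi1 in females ranged from 12 to 15.5 CPM on 11:11 (median 13.8) and from 13.7 to 21 CPM on 12:12 (median 17.1), a difference of -0.32 ± 0.06 (adjusted p = 9.46e-05). In males its medians were 16.6 CPM on 11:11 and 15.8 CPM on 12:12. Msmo1 had medians of 59.3 and 67.5 CPM in females (-0.22 ± 0.04) and of 62.8 and 63.5 CPM in males (0.01 ± 0.04). Cyp46a1 went the other way, with medians of 145 and 141 CPM in females (0.03 ± 0.05) and of 129 and 148 CPM in males (-0.21 ± 0.05, adjusted p = 0.0014). Soat1 had medians of 50.5 and 46.5 CPM in females, where its rise did not pass (0.09 ± 0.04, adjusted p = 0.109). In males its medians were 39.9 and 36 CPM. Acat2 passed in neither sex (adjusted p = 0.129 in females and 0.297 in males).

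Tested as a difference between the sexes, the light cycle effect differed for 4 of 32 genes (12.5%), against 3.91% of all genes. Given as the male minus the female effect, it was 0.33 ± 0.09 for Idi1 (adjusted p = 0.0186), 0.23 ± 0.06 for Msmo1 (adjusted p = 0.0072), 0.18 ± 0.05 for Sc5d, a sterol desaturase (adjusted p = 0.0261), and -0.24 ± 0.07 for Cyp46a1 (adjusted p = 0.0265). Hmgcs1 fell in females (-0.18 ± 0.04) and not past the threshold in males (-0.02 ± 0.04), and the difference of 0.16 ± 0.06 did not pass (adjusted p = 0.0918). The difference for Insig1, 0.14 ± 0.07, did not pass either (adjusted p = 0.279). In the running wheel set the same test called 0 of 32 genes by edgeR (6 with an unadjusted p under 0.05) and 0% of all genes. The value for Idi1 there, 0.31 ± 0.09 (adjusted p = 0.313), was of a size with that in the calorimetry set, and whether the 2 sets differ in it was not tested.

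In the running wheel set 0 of 32 genes passed by edgeR and 0 by DESeq2, and 1 (Hmgcs1, 0.07 ± 0.03) had an unadjusted p under 0.05. Insig1 had medians of 76.4 CPM on 11:11 and 77.4 CPM on 12:12 (0.04 ± 0.03, 95% interval -0.03 to 0.10). Averaged over the sexes, the interval of the running wheel set for Insig1 therefore excludes a fall of the size seen in the calorimetry set. That average joins opposite directions. The medians on 11:11 and 12:12 were 74.2 and 79.3 CPM in running wheel females and 87.8 and 76.8 CPM in running wheel males. The test of the difference between the sexes called no sterol gene in this set, as given above. Tested directly, the light cycle difference itself differed between the sets for 3 of 32 genes (9.38%, against 5.32% of all genes): Insig1 (-0.27 ± 0.05, adjusted p = 0.000158), Hmgcs1 (-0.17 ± 0.04, adjusted p = 0.0049) and Soat1 (0.13 ± 0.04, adjusted p = 0.0404). Only Insig1 of these passed without replicate 3 or without replicate 4, Soat1 did not pass without any 1 of the 4 replicate numbers, and it had an adjusted p of 0.052 under RLE scaling.

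**Figure D4:**
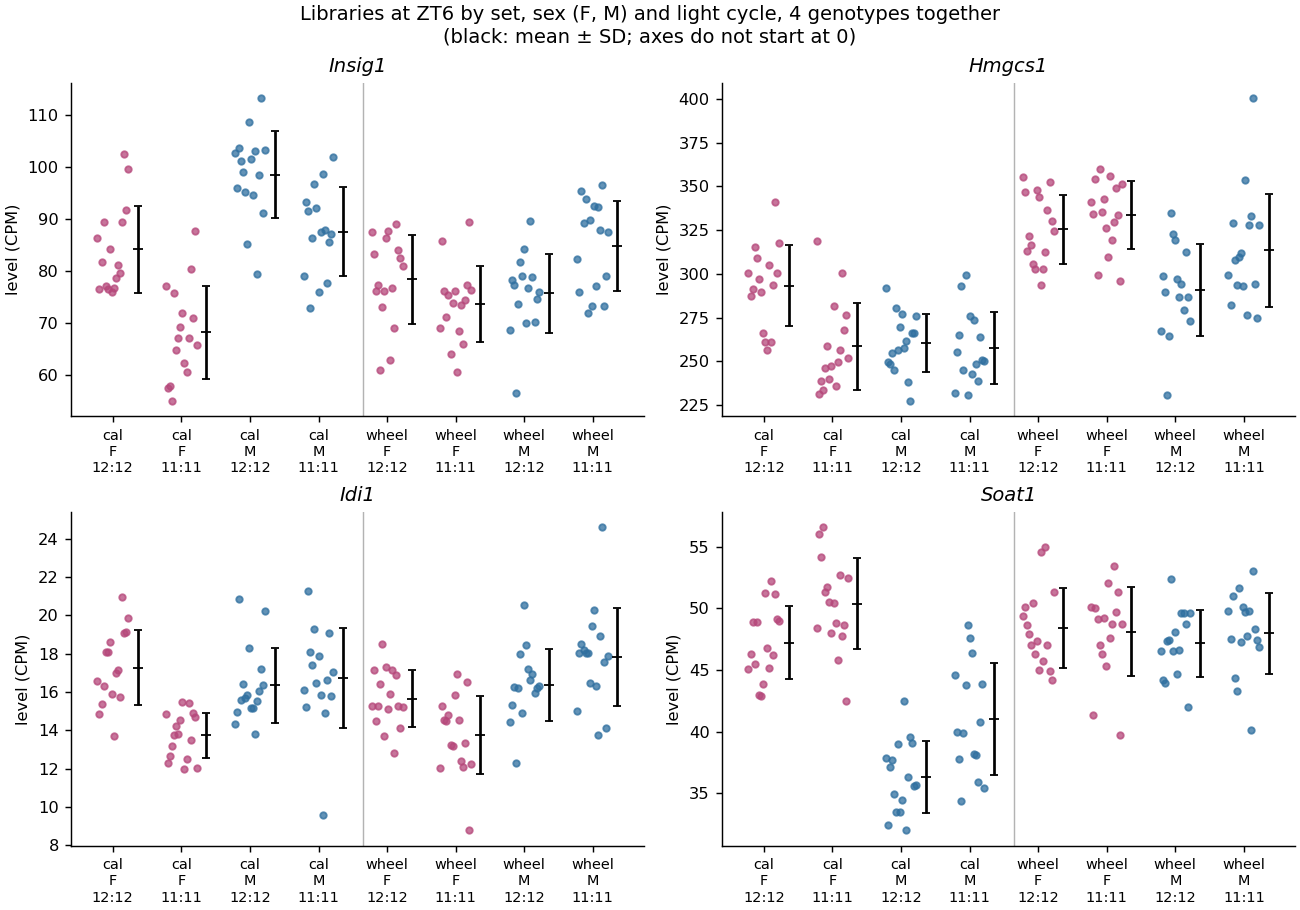
Levels (CPM, vertical axis) of Insig1, Hmgcs1, Idi1 and Soat1 in each ZT6 library by set, sex and light cycle (horizontal axis), the 4 genotypes together, with mean ± SD in black. In the calorimetry set Insig1 is lower on 11:11 in both sexes, and Idi1 and Hmgcs1 are lower on 11:11 in females, with medians of 13.8 against 17.1 CPM and 251 against 295 CPM.

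Of the other lists in the calorimetry set, 2 of 17 fatty acid genes and 3 of 27 other sterol genes passed, shares below the 19.6% of all genes. The fatty acid genes were Elovl6 (0.19 ± 0.04) higher and Slc25a1 (the mitochondrial citrate carrier, -0.13 ± 0.04) lower. The 3 other sterol genes were all higher, led by Lipa (lysosomal acid lipase, 0.25 ± 0.04) and Gramd1b (0.22 ± 0.03). Blood markers were lower on 11:11 in this set (3 of 5 passed, all lower, with sums of 44.3 to 281 CPM against 68.3 to 376 CPM), and of the myelin markers 4 rose and 2 fell (sums of 2270 to 4650 CPM against 2460 to 3670 CPM). Of the oligodendrocyte precursor markers 3 of 6 rose (sums of 140 to 224 CPM, median 201, against 145 to 218 CPM, median 184), the median length slope was -0.03 against -0.17, and ribosomal RNA took 0.0701 to 3.19% of counts (median 0.72%) against 0.107 to 8.33% (median 0.595%). With the sum of the myelin markers as a covariate, and likewise with the length slope, Acat2 (adjusted p = 0.0898 and 0.106) and Cyp46a1 (0.19 and 0.106) did not pass, and the other 5 genes did. The part of blood, of the precursor markers and of ribosomal RNA was not tested.

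The calorimetry and running wheel sets differ at least in chamber, wheel, light at collection and the schedule before it, so these cannot be told apart. Calorimetry began after 22 days of entrainment, whereas wheels came after 15 days and stayed for 7 days. Between the sets, 23 of 32 genes (71.9%) differed, 7 higher and 16 lower in the calorimetry set, against 62.2% of all genes (29.3% higher and 32.9% lower). Apoe was the highest, with medians of 625 CPM in the calorimetry set and 503 CPM in the running wheel set (0.41 ± 0.03, adjusted p = 4.26e-21). Pmvk, phosphomevalonate kinase, had medians of 15.9 and 12.5 CPM (0.33 ± 0.03), and Insig2 of 36.1 and 33 CPM (0.18 ± 0.02). On the lower side were 6 of 10 enzymes from squalene to cholesterol and both the escort Scap (medians 77.2 and 91 CPM, -0.24 ± 0.02) and Srebf2 (227 and 265 CPM, -0.23 ± 0.02). Hsd17b7, a sterol ketone reductase (-0.26 ± 0.03), and Hmgcs1 (262 and 316 CPM, -0.24 ± 0.02) were the most lowered enzymes, followed by Mvd (-0.22 ± 0.04), Dhcr7 (-0.20 ± 0.03) and Sqle (-0.17 ± 0.02). Abcg1 fell by 0.20 on the log2 scale (SE 0.02), and Insig1 rose by 0.10 (SE 0.02). The medians of Insig1 in the calorimetry and running wheel sets were 94.6 and 78.9 CPM in males, but 76.7 and 76.2 CPM in females. For every gene named here the ranges of the sets overlapped.

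A property of the libraries also differed between the sets and the sexes. The slope of log2 CPM on the log10 of gene length averaged -0.24 in calorimetry males, -0.03 in calorimetry females, 0.03 in running wheel males and 0.23 in running wheel females. As a covariate it therefore also takes out part of the set and sex differences, and the slope cannot be told apart from set and sex. With that slope as a covariate, 15 genes passed between the sets instead of 23, and Apoe (0.07 ± 0.07), Abcg1, Hsd17b7 and Sqle no longer did. Myelin markers (8 of 12 higher, 1 lower), blood markers (4 of 5 higher) and striatal markers (6 of 6 lower) also differed between the sets. Of the fatty acid genes 12 of 17 differed (3 higher, 9 lower), led by Acly (-0.26 ± 0.02) and Fasn (fatty acid synthase, -0.38 ± 0.03), and of the other sterol genes 19 of 27 (5 higher, 14 lower), led by Osbp (an oxysterol-binding lipid carrier, -0.24 ± 0.02) and Gramd1b (-0.28 ± 0.02).

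**Figure D5:**
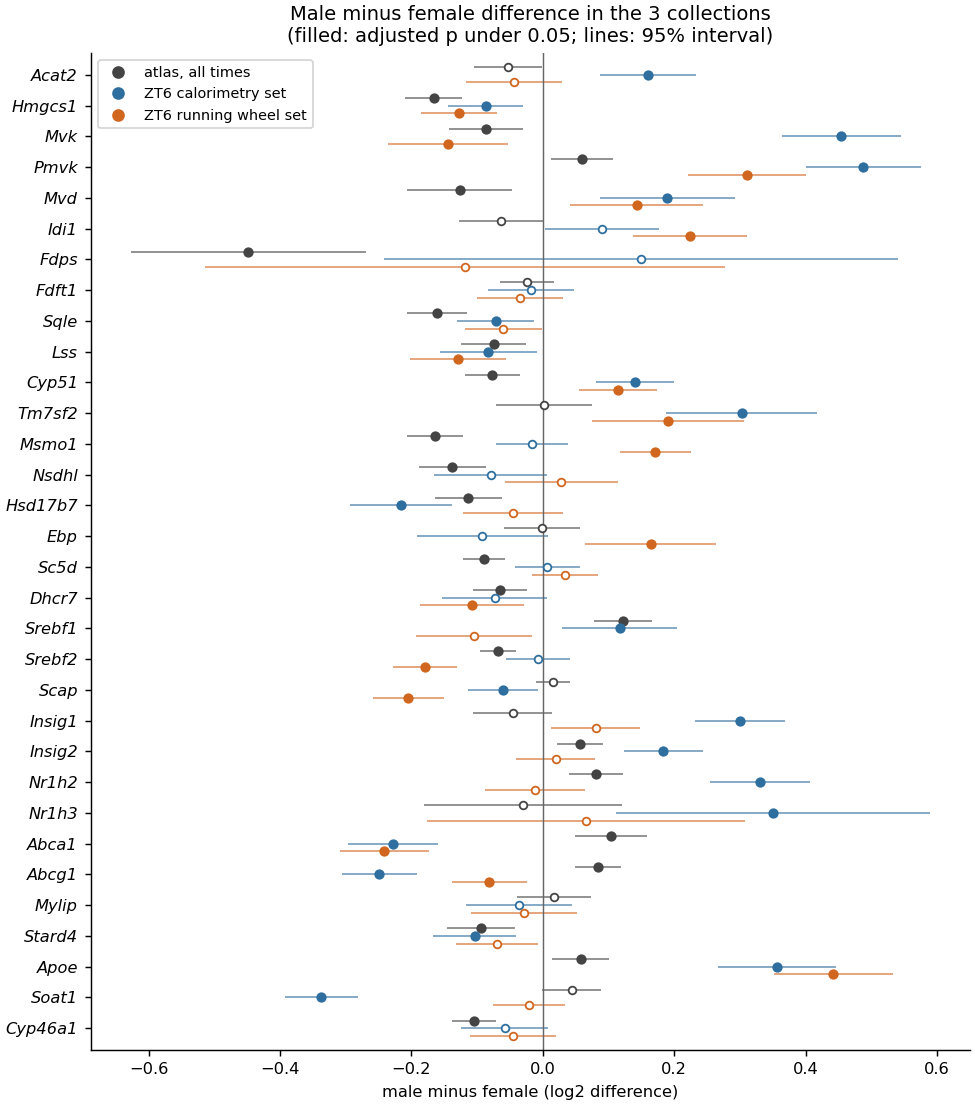
Male minus female difference (log2, horizontal axis) for each of the 32 genes (vertical axis) in the atlas, the calorimetry set and the running wheel set, with 95% intervals as lines and filled dots past an adjusted p of 0.05. Mvk differs in opposite directions in the 2 sets, at 0.45 and -0.14, and Abca1 is higher in atlas males but lower in males of both sets at ZT6.

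At ZT6, 23 of 32 genes (71.9%) differed between the sexes, 12 higher and 11 lower in males, against 58.1% of all genes (27.6% higher and 30.5% lower). Pmvk (0.40 ± 0.03) and Apoe (0.40 ± 0.03) were the most raised in males and Abca1 (-0.23 ± 0.02), Soat1 (-0.18 ± 0.02) and Abcg1 (-0.17 ± 0.02) the most lowered. Nr1h3 (0.21 ± 0.09, not past the threshold without any 1 of the 4 replicate numbers), Insig1 (0.19 ± 0.02), Mvd (0.17 ± 0.04), Nr1h2 (0.16 ± 0.03), Idi1 (0.16 ± 0.03), Tm7sf2 (0.25 ± 0.04) and Mvk (0.16 ± 0.03) were also higher in males, and of these Nr1h2, Tm7sf2 and Mvk had a negative difference once the length slope was a covariate. With that covariate 11 genes passed, and Apoe, Abcg1, Soat1, Mvd and Nr1h3 were among those that did not. The signs of the atlas did not carry over throughout: Mvd, Cyp51 and Msmo1 were lower in atlas males and higher in ZT6 males, and Abca1 and Abcg1 were higher in atlas males and lower in ZT6 males. For Msmo1 the male and female medians were 69.7 and 62.3 CPM in the running wheel set. They were 63.4 and 63.6 CPM in the calorimetry set, so the higher male level was that of the running wheel set. Hmgcs1 (-0.11 ± 0.02) and Sqle (-0.07 ± 0.02) were lower in males in both tables. The tables were collected and scaled separately, so this difference between them was not tested.

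The sex difference itself differed between the sets for 14 of 32 genes (43.8%), 9 with a higher and 5 with a lower value in the calorimetry set, against 51.8% of all genes (22.7% and 29.1%). Mvk ranged from 8.24 to 24.4 CPM in calorimetry males (median 17.3) and from 8.95 to 14.9 CPM in calorimetry females (median 12). In the running wheel set the order was the other way, with medians of 12.8 CPM in males and 14.3 CPM in females. The male minus female difference was 0.45 ± 0.05 in the calorimetry set and -0.14 ± 0.05 in the running wheel set, and the difference of the 2 was 0.60 ± 0.07 (adjusted p = 8.01e-14). Soat1 had medians of 37.9 CPM in calorimetry males and 48.9 CPM in calorimetry females, and of 47.5 and 48.7 CPM in running wheel males and females (-0.32 ± 0.04 between the sets). All 5 SREBP control genes passed with the male level relatively higher in the calorimetry set, from 0.14 ± 0.04 for Scap to 0.22 ± 0.06 for Srebf1. Srebf1 did not pass without replicate 1 (0.17, adjusted p = 0.0747), without replicate 2 (0.0532) or with the myelin covariate (0.0528). In calorimetry males the blood markers summed to 109 to 376 CPM, against 44.3 to 168 CPM in calorimetry females, and the length slope was the lowest of the 4 groups. The part of the blood markers in these differences was not tested. With the length slope as a covariate, 14 genes passed, as many as without it, and the share of all genes with it is not given here.

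The genotypes were compared over both sets, sexes and light cycles, and the comparisons with WT/WT share the same 32 WT/WT mice. By edgeR 0 of 32 genes passed in HET/WT (2 with an unadjusted p under 0.05), 0 in WT/TG (2), 0 in HET/TG (4) and 0 in HET/TG against HET/WT (1), and DESeq2 also called 0 in each. Of all genes 0.0425%, 0.0159%, 0.0478% and 0.0106% passed. Insig1 had the highest median in WT/WT, 84.8 CPM (range 65.9 to 113), against 76.5 CPM in HET/WT (61 to 109), 77.9 CPM in WT/TG (60.6 to 103) and 78.8 CPM in HET/TG (55 to 104). Its differences from WT/WT were -0.09 ± 0.03, -0.10 ± 0.04 and -0.10 ± 0.03, with adjusted p of 0.661, 1 and 0.682. Lss had medians of 29 CPM in WT/WT, 27.5 in HET/WT, 28.8 in WT/TG and 27.4 in HET/TG, and its differences were -0.08 ± 0.04 in HET/WT (adjusted p = 0.763) and -0.11 ± 0.04 in HET/TG (adjusted p = 0.651). None of these is a change past the threshold. The differences of all 32 genes in HET/WT lay between -0.09 and 0.05, with SEs of at most 0.20.

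Whether the HET/WT difference itself differed by light cycle, sex or set was also tested. By edgeR and by DESeq2, 0 of 32 genes passed in each, and 0% of all genes did. At an unadjusted p under 0.05 there were 2 genes by light cycle (Abca1 and Cyp51), 5 by sex (Tm7sf2, Insig1, Acat2, Mvd and Fdft1) and 1 by set (Srebf2), chosen for naming after their values were seen.

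Single genes were related across libraries after the group means had been removed, for fixed pairs with Sqle, with p-values adjusted over 12 relations. Pearson's r of Sqle with Hmgcs1 was 0.542 over 92 atlas libraries and 0.621 over 126 ZT6 libraries, and Spearman's rho was 0.499 and 0.627 (permutation test, adjusted p = 4e-05 for each, from the smallest p of 1e-05 that 100000 permutations can give). Without the 2 libraries farthest from the median of Sqle, r was 0.519 and 0.557. It was 0.567 in atlas females, 0.517 in atlas males, 0.652 in the calorimetry set and 0.603 in the running wheel set. Sqle with Insig1 gave r of 0.359 and 0.45 (rho 0.346 and 0.461, permutation test, adjusted p of r = 0.000768 and 4e-05), with 0.373 and 0.392 after the same removal. Sqle with Idi1 gave 0.283 and 0.362 (rho 0.211 and 0.376, permutation test, adjusted p of rho = 0.0584 and 9e-05). Abca1 and Srebf1 had no such relation to Sqle in the atlas (r = -0.00107 and -0.0209, permutation test, adjusted p = 0.992 and 0.92) and a negative one at ZT6 (r = -0.245 and -0.282, adjusted p = 0.00836 and 0.00272). The relation with Srebf1 was -0.371 in the calorimetry set and -0.0819 in the running wheel set. All pairs share the scaling and depth of their libraries.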

How the data were processed

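The data are bulk RNA-seq libraries of mouse left prefrontal cortex. RNA was taken as total RNA, depleted of ribosomal RNA and made into directional libraries, per the labels' protocols. Both deposited tables hold integer read counts per Ensembl gene, without normalization by the authors. Trim Galore, STAR, SAMtools and limma and the genome build mm10 are named per the submitters' processing notes. For their versions, the counting program, its strand setting and the annotation: not given in the sources used here. Of the 55487 identifiers, 55227 were found in the annotation used for names and coordinates (GENCODE on GRCm38) and 260 were not. One sample of the labels has no column and was not analysed here.

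The members and all gene lists were chosen with earlier results of these data known. Counts were fitted with edgeR 4.0.16 (R 4.3.3): genes with low counts removed by filterByExpr, TMM scaling, robust quasi-likelihood fit, Benjamini-Hochberg adjustment over all genes tested, threshold 0.05. The atlas model held sex and a 24 h cosine curve. The ZT6 model had a mean for each of the 32 groups, and contrasts weighted the groups equally. CPM are TMM-scaled, and SEs and 95% intervals are those of the fit. In all, 17 comparisons were fixed, and 10 contrasts within a sex or set were added after the data were seen. Genes were named by rule: those past the threshold, largest change first and up to 12 per comparison, with up to 4 that did not pass from the other end of their role group, and from the other lists up to 2 by smallest p. Other genes named were chosen after their values were seen.

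On simulated counts with 200 changed genes, the atlas fit recovered 37.3% of curves with a log2 size of 0.15, 68.7% at 0.3 and 80.3% at 0.6, and the calorimetry light cycle contrast recovered 9.09% of changes of 0.1, 39.7% of 0.2 and 60.3% of 0.4. In that simulation a change of about 0.1 was often missed. The real data had far more genes past the threshold, 41.4% for the atlas curve and 19.6% for the calorimetry contrast. The adjustment was therefore less strict there, and the simulated rates do not carry over to these data. Alternatives were RLE scaling, DESeq2 1.42.0, no filter, covariates for myelin markers and for the slope on gene length, a replicate block, time as a factor, subsets of libraries and leaving out each replicate number. No 2 libraries of a group held identical counts, and none agreed within sampling noise (lowest chi-square per gene 2.89). Promoters came from RefSeq on GRCm38.p6. Some of the 12 relations and of the genes in the other lists are not reported here.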

Additional observations from a re-analysis of the deposited data

Results flagged for a closer look

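Effects of the same contrast differed between groups of mice, by the test of the difference itself, for the genes given here (log2 scale). The light cycle difference (11:11 minus 12:12) was lower in the calorimetry set than in the running wheel set by -0.27 for Insig1 and -0.17 for Hmgcs1, and higher by 0.13 for Soat1. Within the calorimetry set the light cycle difference of males minus that of females was 0.33 for Idi1, 0.23 for Msmo1, 0.18 for Sc5d and -0.24 for Cyp46a1.

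The sex difference (male minus female) was larger in the calorimetry set than in the running wheel set for 9 genes: by 0.60 for Mvk, 0.34 for Nr1h2, 0.22 for Srebf1, 0.22 for Insig1, 0.20 for Acat2, 0.18 for Pmvk, 0.17 for Srebf2, 0.16 for Insig2 and 0.14 for Scap. It was smaller or more negative for 5: -0.32 for Soat1, -0.26 for Ebp, -0.19 for Msmo1, -0.17 for Hsd17b7 and -0.17 for Abcg1. Some of these calls rested on single replicate numbers. Ebp had -0.16 without replicate 3 (adjusted p = 0.122), Hsd17b7 an adjusted p of 0.0615 without replicate 3 and 0.0502 without replicate 4, and Pmvk one of 0.117 without replicate 2, 0.0832 without replicate 4 and 0.214 with the myelin covariate. Srebf1 had 0.0747 without replicate 1 and 0.0532 without replicate 2. Acat2, which starts the pathway, differed by 0.16 ± 0.04 between the sexes in the calorimetry set and by -0.04 ± 0.04 in the running wheel set, and Ebp by -0.09 ± 0.05 and 0.16 ± 0.05.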

How the results depend on the processing

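The counts of sterol genes past the threshold were recomputed under every alternative. With the slope on gene length as a covariate, 15 genes instead of 23 differed between the sets and 11 instead of 23 between the sexes at ZT6 (6299 instead of 11713 and 5306 instead of 10948 of all genes). Over the day 7 genes passed in females fitted alone and 8 in males, each on 46 libraries, against 15 in both on 92. The shares of all genes in the fits of 1 sex are not given here. In calorimetry males alone 4 genes passed for light cycle, against 7. Leaving out 1 replicate number gave 1 to 3 genes for light cycle over both sets (1 without replicate 3), 4 to 9 in the calorimetry set (4 without replicate 4) and 1 to 3 for its difference between sets (1 without replicate 3 or 4). It gave 12 to 18 for the daily curve, 20 to 23 for atlas sex, 19 to 22 for set, 21 to 24 for ZT6 sex and 11 to 13 for sex by set. For the counts without 1 replicate number the shares of all genes are not given here, so they describe the sterol genes only. The causes were not tested. No other alternative moved a count by over 1.5 times, and the genotype counts were 0 throughout.

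Of 943 single-gene values under an alternative, 835 kept direction and side of the threshold, 100 kept only direction and 8 changed sign. The 8 are the calorimetry light cycle difference of Cyp46a1 in females (0.0294) and of Idi1 (0.0079) and Msmo1 (0.0136) in males, and the ZT6 sex difference of Mvk (-0.1149), Nr1h2 (-0.0354) and Tm7sf2 (-0.0793) with the length covariate and of Mvk (-0.144) and Nr1h2 (-0.0116) in the running wheel set.

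Same-numbered libraries were checked for a shared deviation (mean correlation 0.0052 in the atlas and 0.0082 at ZT6, against -0.0009 and -0.0027 for other numbers; 27.2% and 34.1% of libraries correlated best with their own among 6 and 4 numbers). The shares of 27.2% and 34.1% lay above what an even spread over 6 and 4 numbers would give. Only 19.7% and 9.21% of the pairs had a correlation over 0.1 and the labels tie no numbers together. The numbers were therefore not taken as pairs, and a block for the number was fitted as an alternative. With the number as a block, 14 genes passed for the daily curve, 22 for atlas sex, 22 for set, 23 for ZT6 sex, 14 for sex by set, 4 for light cycle, 8 in the calorimetry set, 0 in the running wheel set and 4 for the difference between sets. The shares of all genes with the block are not given here, so these counts describe the sterol genes only. The block ended the calls of Mvk for the daily curve (adjusted p = 0.0598) and of Cyp46a1 for light cycle in the calorimetry set (0.0509). Without a filter on low counts, between 76 and 119 of all genes passed in each genotype comparison, against 0 to 9 with it, and 208 against 13 for light cycle in the running wheel set. Depth limits the precision of Fdps and Nr1h3, which had the lowest levels and the widest SEs.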
